A study of Mus musculus with 6 samples.

Results

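Tight junctions seal the space between neighbouring epithelial cells, and 9 of their genes were followed here across all libraries of corneal epithelial sheets. They were the claudins Cldn1, Cldn4, Cldn7, Cldn12 and Cldn23, the membrane proteins Ocln (occludin) and F11r (junctional adhesion molecule A), and the scaffold proteins Tjp1 (ZO-1) and Tjp3 (ZO-3). They were picked by symbol, each had 1 row among the 25006 genes of the count table, and each of the 9 passed the filter on low counts. Total RNA of the sheets, the layered cells at the front of the mouse eye, had been sequenced from 3 wild type samples and 3 labelled EphA2 null, written EphA2-/- in the design text, which by that label lack the receptor tyrosine kinase EphA2. Age, strain, how the allele was made and any treatment are not stated, and whether each sample came from its own animal is unknown. The p-values therefore speak only to how far these samples vary, and that variation could be technical.

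Claudins span the membrane several times and pair with claudins of the next cell to form the sealing strand, and the choice of claudin sets which ions can pass. Occludin and F11r sit in or beside the strand, and the ZO scaffolds bind claudin tails inside the cell and tie them to actin. In the corneal epithelium such junctions close the outermost cell layer and form the barrier against the tear film.

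Below, W1, W2 and W3 stand for the wild type samples and N1, N2 and N3 for those labelled EphA2 null, numbered in accession order. Each title carries a number of unstated meaning, low in W1, W2 and N1 and high in W3, N2 and N3. W1 and W2 share their number, as do N2 and N3. A letter in the title, also of unstated meaning, differs within each of these pairs. Since 59% of the tested genes did not overlap between low and high title numbers, each gene is also given by this title range. Total counts ran from 15308013 to 27586942 per library. Epha2 was not lower under the null label, at 298 (W1), 253 (W2), 562 (W3), 284 (N1), 652 (N2) and 578 (N3) CPM, which are counts per 1e+06 of the TMM-scaled library total. Every direction between genotypes therefore rests on the label. The corneal and basal keratins Krt12 and Krt5 averaged 14580 and 26960 CPM. Of 8 markers of stromal keratocytes and fibroblasts, 2 (Kera and Lum) were at 0 in each library. Pdgfra of the same list averaged 12.7 CPM, and 7 of the 8 averaged under 1 CPM.

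The promoters of Cldn1 and Cldn4 are shown because, of the claudins followed, Cldn1 had the largest fall and Cldn4 the largest rise between title ranges, as described further on. Each sequence is the 250 bases before the gene start, 5′ to 3′ on the gene's strand (RefSeq, GRCm38.p6). The Cldn1 stretch lies at chr16:26371840-26372089 and that of Cldn4 at chr5:134946935-134947184, both on the minus strand. Capitals mark matches to the GC box CCGCCC, bound by Sp factors, and the E-box CACCTG, read by Snail and Zeb repressors, on either strand.
Cldn1: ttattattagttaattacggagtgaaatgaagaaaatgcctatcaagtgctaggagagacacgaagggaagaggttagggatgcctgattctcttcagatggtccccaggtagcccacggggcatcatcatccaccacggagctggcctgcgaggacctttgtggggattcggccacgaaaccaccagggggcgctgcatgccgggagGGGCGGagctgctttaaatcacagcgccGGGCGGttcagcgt
Cldn4: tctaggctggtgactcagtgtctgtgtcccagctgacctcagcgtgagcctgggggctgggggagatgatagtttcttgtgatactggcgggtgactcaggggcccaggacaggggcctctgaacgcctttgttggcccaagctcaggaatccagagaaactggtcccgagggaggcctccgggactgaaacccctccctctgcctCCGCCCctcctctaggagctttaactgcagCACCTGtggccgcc
The Cldn1 stretch holds 2 GC boxes and no CACCTG, and the Cldn4 stretch holds 1 of each. RefSeq windows of 300 bases, which run on past the start, were found for 8 of the 9 genes (all but Cldn23), 13 windows in all, some of which overlap. CACCTG stood in 7 of the 13 and in 20.2% of all 32851 windows, and CCGCCC in 9 of the 13 and in 35.7% of all. The Grainyhead-like motif AACCGGTT (0.146% of all windows) and TATAAA (13.6%) stood in 0 of the 13. A match is a run of letters, not a shown binding site.

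Levels were compared between genes as CPM per kb of exon. Cldn4 was highest with a mean of 277.5 CPM per kb (range over the 6 libraries 192 to 390), before F11r with 205.0 (191 to 229) and Cldn7 with 163 (131 to 208). Tjp3 had 65.7 (43.9 to 84.3), Cldn23 60.1 (49.2 to 72.9) and Tjp1 48.2 (36.1 to 64.7). Ocln followed with 20.9 (17.8 to 23.0), and Cldn1 with 5.63 (2.55 to 8.56) and Cldn12 with 4.87 (3.68 to 6.06) were lowest. The libraries of neighbouring genes overlapped in this order except at 3 steps, between Cldn7 and Tjp3, between Tjp1 and Ocln, and between Ocln and Cldn1.

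**Figure D1:**
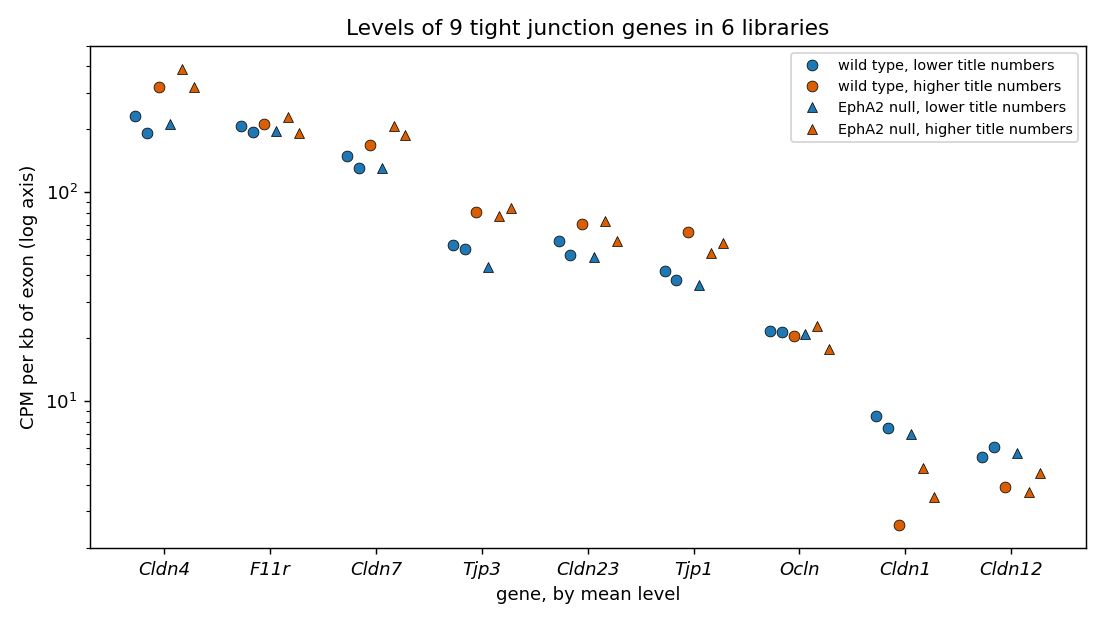
Levels of the 9 genes in CPM per kb of exon (log axis) in each of the 6 libraries, circles for wild type, triangles for the libraries labelled EphA2 null, blue for lower and orange for higher title numbers. Cldn4 had the highest mean (277.5) and Cldn12 the lowest (4.87), and blue and orange points part for 7 genes but not for Ocln and F11r.

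Between the genotypes, none of the 9 genes was called. With genotype as the only term, 0 of 9 passed the threshold (quasi-likelihood test in edgeR, Benjamini-Hochberg adjusted p under 0.05), 0 had an unadjusted p under 0.05, and DESeq2 and limma voom also called 0. Over all 12847 tested genes 0.00778% were called. The 9 log2 fold changes (null label over wild type) had a median of 0.01, as had all tested genes, and ran from -0.28 for Cldn1 to 0.30 for Cldn4. The 2 genotypes overlapped for each of the 9 genes, whereas 3.73% of all tested genes did not overlap.

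With the title range as a second term the intervals narrowed. The widest, for Cldn1, went from -1.33 to 0.77 with genotype alone to -0.28 to 0.71 with the term. For Cldn4 the 95% interval with the term was -0.21 to 0.35 around 0.07, and for Cldn7 -0.19 to 0.33 around 0.07. For Tjp1 it was -0.43 to 0.01 around -0.21 (unadjusted p = 0.0611 and adjusted p = 0.9996 in edgeR), the smallest p of the 9. For F11r it was -0.26 to 0.22 around -0.02. A genotype difference of 2-fold, which is 1 on the log2 scale, thus lay outside the 95% interval of each of the 9 genes in that fit. All intervals given here take the 6 libraries as independent, though W1 and W2, and N2 and N3, share a title number. The term turned the sign of 5 of the 9 fold changes (Cldn1, Cldn12, Cldn23, Tjp3 and F11r), none of which was called with or without it.

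**Figure D2:**
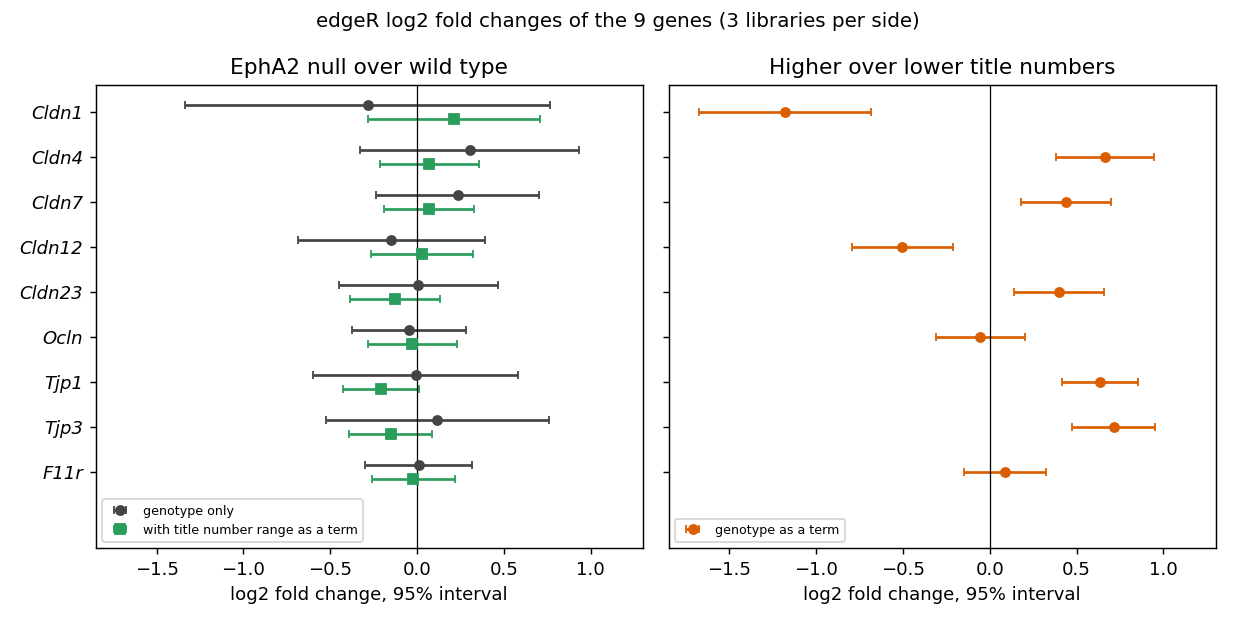
edgeR log2 fold changes of the 9 genes with 95% intervals, left for the null label over wild type (grey, genotype only, and green, with title range as a term), right for higher over lower title numbers with genotype as a term. Left, each of the 18 intervals includes 0; right, the intervals of 7 genes do not, with Cldn1 (-1.18) and Cldn12 (-0.50) below 0.

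Between the title ranges, 7 of the 9 genes were called: Cldn4, Cldn7, Cldn23, Tjp1 and Tjp3 were higher and Cldn1 and Cldn12 lower in the 3 libraries with higher title numbers (edgeR, genotype as a term, adjusted p under 0.05). This comparison called 44.7% of all 12847 tested genes, 24.6% as higher and 20.1% as lower, so a called gene is common in it. The same 7 genes did not overlap between the ranges, beside 30.2% of all tested genes that lay wholly higher and 28.8% wholly lower. The median log2 fold change of the 9 genes was 0.40, against -0.01 over all tested genes. DESeq2 and limma voom also called 7. Without N1, the only sample under the null label with a low number, 3 of the 9 were called and the share of all tested genes called fell to 8.47%. Without W2 it was 5 of the 9 beside 27.2%, and without W3 5 beside 28.4%. With an offset for GC content, an alternative added after the data were seen, it was 2 beside 35.4%.

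GC content moved with this difference over the whole table. With the tested genes cut into 3 equal classes (tertiles), those in the lowest tertile of transcript GC had a median log2 fold change of -0.28 between the ranges, the middle tertile 0.01 and the highest tertile 0.36. The 2 genes that were lower, Cldn1 (39.0% GC) and Cldn12 (44.5%), lie in the lowest tertile, as does Ocln (42.0%). Cldn4 (56.8%), Cldn7 (57.0%), Cldn23 (54.8%) and Tjp3 (60.7%) lie in the highest. Tjp1 (46.8%) and F11r (50.1%) lie in the middle tertile. Exon length moved less, with medians of -0.16, 0.04 and 0.11 from the shortest to the longest tertile. With the GC offset in edgeR, 35.4% of all genes were still called, and of the 9 genes only Tjp1 (log2 fold change 0.70, adjusted p = 0.00282) and Cldn1 (-0.81, adjusted p = 0.0323).

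**Figure D3:**
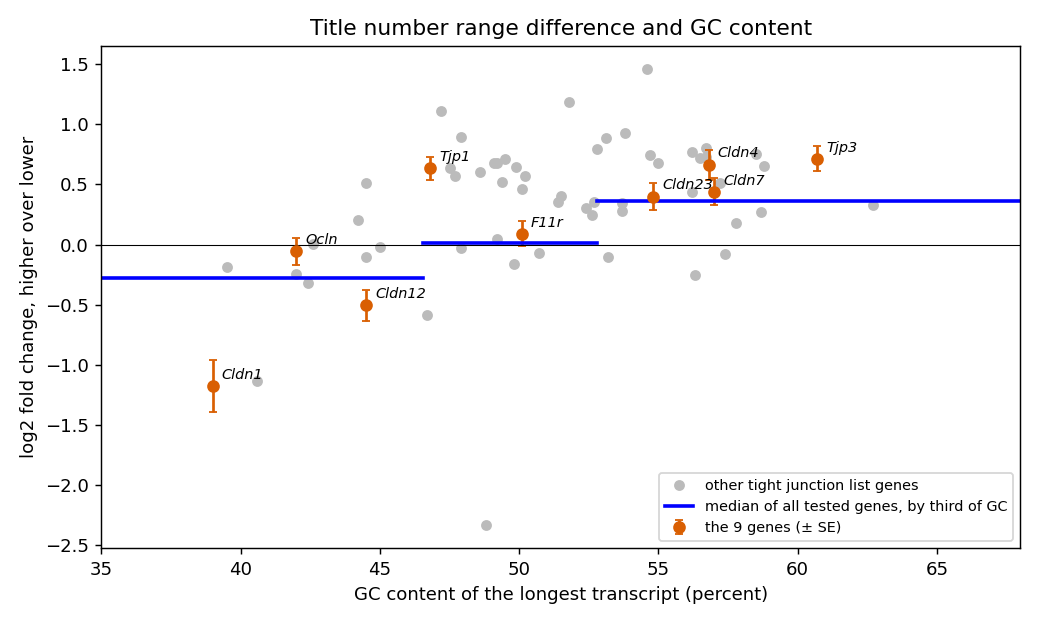
Log2 fold change between the title ranges (higher over lower) against the GC content of each gene's longest transcript, for the 9 genes (orange, ± SE) and the other tight junction genes (grey); blue lines give the median of all tested genes in each tertile of GC, drawn within the plotted range. The medians step from -0.28 to 0.36, and Tjp1 (0.64) and Cldn1 (-1.18) lie far from the line of their tertile.

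Some marker lists of cells and layers moved with the title range as well, in a comparison that called 24.6% of all tested genes higher and 20.1% lower. The 7 corneal epithelial markers summed to 58470 to 65590 CPM in the lower and 75060 to 81760 CPM in the higher range. Of these 7, 2 were called higher and 0 lower, and 2 fold changes were below 0. Krt5 and Krt12, which hold much of the sum, were not called. The 14 leukocyte markers summed to 26.8 to 43.9 CPM in the lower and 5.11 to 9.72 CPM in the higher range. Of these 14, 9 were tested, 8 were called lower and none higher. None was at 0 in each library, but 10 of the 14 averaged under 1 CPM. The 8 conjunctival and goblet cell markers summed to 4638 to 5999 and 3125 to 5726 CPM, which overlap. All 7 tested fold changes were below 0 (median -0.86), beside 6497 of all 12847 tested genes, and 2 of the 7 were called lower. One of these, the goblet cell mucin Muc5ac, was at 38.5, 5.24 and 58.7 CPM in W1, W2 and N1, and at 0.675, 2.21 and 1.68 CPM in W3, N2 and N3. The basal layer list (9 markers) summed to 9436 to 10730 and 10650 to 13070 CPM, which overlap. In it 5 of 9 were called higher and 0 lower, and 2 fold changes were below 0. The superficial layer list summed to 7771 to 9318 and 10540 to 11510 CPM, with 1 of 8 tested called higher and 2 lower. The 1 called higher, Muc4, averaged 6713 CPM and held most of each sum. Of the 8 fold changes 5 were below 0, and the median of the 8 was -0.16. The 7 Schwann cell and nerve markers summed to 171 to 256 and 287 to 387 CPM, with 1 of 3 tested called higher, and the 5 corneal endothelial markers to 535 to 651 and 656 to 744 CPM, with 1 of 3 called higher and 1 lower. In these lists of 3 tested genes, and in the corneal epithelial, superficial and conjunctival lists, the calls are too few to set apart from the shares of all tested genes. The stromal markers (11.5 to 12.8 and 10.4 to 16.9 CPM) and the melanocyte markers (9.21 to 10.4 and 7.36 to 11.3 CPM) overlapped between the ranges, with 0 of 1 and 0 of 2 tested genes called. The vessel endothelial markers summed to 0.931 to 1.16 and 1.57 to 2.75 CPM and the lens markers to 5.73 to 6.99 and 7.42 to 9.85 CPM, each with 0 of 1 tested called. Their part in the results on the 9 genes was not tested. In sheets of mixed cells, fewer cells of a type and less RNA per cell cannot be told apart.

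Cldn4, a sealing claudin and a receptor for a clostridial enterotoxin, is a gene of 1 exon (ENSMUSG00000047501, chromosome 5, 134945119 to 134946934, GRCm38). Its levels were 423 and 349 CPM in W1 and W2 and 385.5 CPM in N1. They were 581 CPM in W3 and 708 and 577 CPM in N2 and N3. All 3 libraries with higher title numbers thus lay above all 3 with lower ones, in both genotypes. The log2 fold change was 0.66 ± 0.12 (SE, 3 libraries a side; adjusted p = 0.00459, edgeR), with 0.60 within wild type and 0.73 within the libraries labelled EphA2 null. The call was lost without N1 (0.59, adjusted p = 0.0745) and with the GC offset (0.31, adjusted p = 0.0850).

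Cldn7, which is found along the sides of epithelial cells as well as in the strand, lies at chromosome 11, 69964779 to 69967885 (ENSMUSG00000018569). It was at 290.2, 254 and 255 CPM in W1, W2 and N1. In W3, N2 and N3 it was at 329, 405 and 367 CPM. The ranges again did not overlap, by a narrower margin than for Cldn4. It changed by a log2 fold change of 0.44 ± 0.11 (adjusted p = 0.0153, edgeR), with 0.28 within wild type and 0.60 within the libraries labelled EphA2 null. It was not called without W2 (0.40, adjusted p = 0.0716), without N1 (0.27, adjusted p = 0.250) or with the GC offset (0.08, adjusted p = 0.582).

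Cldn23, a less studied claudin whose gene also has 1 exon (ENSMUSG00000055976, chromosome 8, 35824712 to 35826559), ran from 90.9 to 108 CPM in the lower and from 108 to 135 CPM in the higher range. W1 (108.2 CPM) and N3 (108.4 CPM) met at the border, so the separation of the ranges is slight. Between the ranges its log2 fold change was 0.40 ± 0.11 (adjusted p = 0.0215, edgeR). The call was lost without W2 (0.33, adjusted p = 0.0915), W3 (0.40, adjusted p = 0.108) or N1 (0.38, adjusted p = 0.174), and with the GC offset (0.13, adjusted p = 0.408).

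Cldn1, the claudin on which the water barrier of the epidermis depends, had the largest ratio of highest to lowest library of the 9 genes. The gene lies at chromosome 16, 26356642 to 26371841 (ENSMUSG00000022512). Its levels were 41.4, 35.9 and 33.9 CPM in W1, W2 and N1. They were 12.4 CPM in W3 and 23.2 and 16.8 CPM in N2 and N3. Each library with a higher title number was below each with a lower one, and W3 was lowest. The log2 fold change was -1.18 ± 0.22 (adjusted p = 0.00437, edgeR), a level 2.26-fold lower in the higher range, and the call held with each library left out in turn (-1.65 to -0.78) and with the GC offset. Within wild type the difference was -1.60 and within the libraries labelled EphA2 null -0.76. By genotype it was -0.19 in the lower and 0.66 in the higher range, and the test of that difference gave 0.88 ± 0.31 with an unadjusted p of 0.0205 and an adjusted p of 0.9991 in edgeR. None of the 9 genes, and 0% of all tested genes, passed that interaction test, in which 2 of the 4 combinations of genotype and range hold 1 library.

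Cldn12, an unusual claudin without the tail motif that binds ZO scaffolds (ENSMUSG00000046798, chromosome 5, 5489537 to 5514958), was at 22.8, 25.6 and 23.9 CPM in W1, W2 and N1. It was at 16.5, 15.5 and 19.2 CPM in W3, N2 and N3. The ranges did not overlap, and the genotypes interleaved. The fitted log2 fold change was -0.50 ± 0.13 (adjusted p = 0.0141, edgeR). It was not called without W3 (-0.47, adjusted p = 0.0872), without N1 (-0.56, adjusted p = 0.106) or with the GC offset (-0.34, adjusted p = 0.0657).

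The make-up of the claudins was compared within each library, which does not use the library's total. No GC offset was applied to the shares, and the claudins differ in GC content (Cldn4 56.8%, Cldn1 39.0%). Whether the shares follow the GC trend described above was not tested. Of 23 claudin genes with a plain number in the table, 4 had 0 counts in every library and 9 passed the filter. Cldn4 made up 49.6% of the summed claudin level per kb on average, Cldn7 29.5%, Cldn23 10.98% and Cldn3, which is not among the 9 genes, 4.95%. Cldn1 made up 1.11% and Cldn12 0.943%. The 5 claudins followed here thus held 90.4% to 93.8% of the claudin level of each library.

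The share of Cldn4 was 46.9%, 45.0% and 47.6% in W1, W2 and N1. It was 52.6%, 53.6% and 52.0% in W3, N2 and N3. The mean was 46.5% ± 1.38 (SD, n = 3) in the lower and 52.7% ± 0.831 (SD, n = 3) in the higher range, and the ranges did not overlap. The share of Cldn1 was 1.68% ± 0.0917 in the lower and 0.549% ± 0.121 in the higher range (SD, n = 3 each), again without overlap. For both, the two-sided exact permutation test gave p = 0.1, the smallest that 3 against 3 libraries allow, so no test of a share, in either comparison, can pass a threshold of 0.05 before or after adjustment over the 23 claudins. Cldn7 differed by less than the spread of the higher range, 30.0% ± 0.590 against 29.1% ± 1.60 (exact p = 0.5). By genotype, the share of Cldn23 was 11.7% ± 0.0843 in wild type and 10.2% ± 0.736 under the null label (SD, n = 3 each, exact p = 0.1), and Cldn4 was 48.2% ± 3.97 and 51.1% ± 3.09 (exact p = 0.3).

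**Figure D4:**
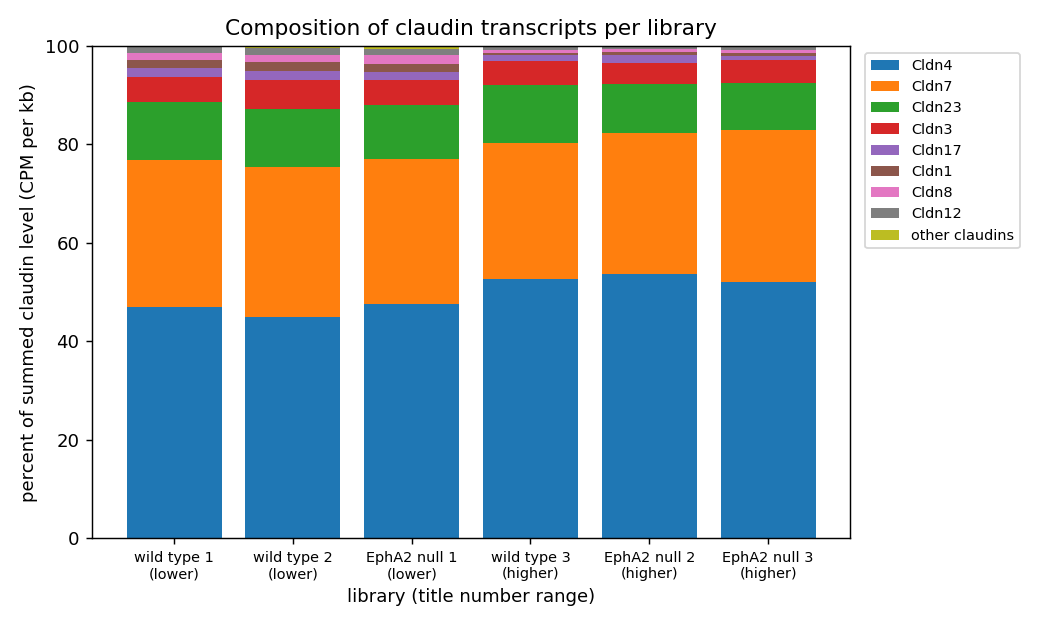
Share of each claudin in the summed claudin level (CPM per kb of exon, percent) in each library, ordered by title range. Cldn4 takes 45.0% to 47.6% in the 3 libraries of the lower and 52.0% to 53.6% in the 3 of the higher range.

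Of the other membrane proteins of the junction, Ocln and F11r were not called in either comparison. Ocln (ENSMUSG00000021638, chromosome 13, 100496507 to 100552718) was at 91.9, 90.5 and 86.7 CPM in W1, W2 and W3 and at 88.2, 97.3 and 75.2 CPM in N1, N2 and N3. The ranges and the genotypes overlapped. The 95% interval of the log2 fold change was -0.31 to 0.20 between the ranges (adjusted p = 0.724, edgeR) and -0.37 to 0.28 between the genotypes.

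F11r (ENSMUSG00000038235, chromosome 1, 171437535 to 171464603), an immunoglobulin-like adhesion protein, was at 552, 516 and 565 CPM in W1, W2 and W3. It was at 523, 610 and 509.5 CPM in N1, N2 and N3. The highest and the lowest value both came from libraries labelled EphA2 null with the same title number. The interval was -0.15 to 0.33 between the ranges (adjusted p = 0.506, edgeR) and -0.30 to 0.32 between the genotypes, so a 1.5-fold difference lay outside it in both.

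The scaffolds Tjp1 and Tjp3 were higher in the higher range. Tjp1 (ENSMUSG00000030516, chromosome 7, 65296165 to 65527781), which links claudins and occludin to actin, was at 330, 298 and 282 CPM in W1, W2 and N1. It was at 506, 399 and 446 CPM in W3, N2 and N3. The ranges were apart and W3 was highest. Higher over lower title numbers, the log2 fold change was 0.64 ± 0.10 (adjusted p = 0.00252, edgeR), with 0.69 within wild type and 0.58 within the libraries labelled EphA2 null. The call held with each library left out in turn (0.57 to 0.69), and the value was no smaller with the GC offset (0.70).

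Tjp3 (ENSMUSG00000034917, chromosome 10, 81273207 to 81291581), a scaffold of the same family found in epithelia, was at 208, 198 and 163 CPM in W1, W2 and N1. In W3, N2 and N3 it was at 297, 285 and 313 CPM. The 3 higher values lay close together. This gave a log2 fold change of 0.71 ± 0.11 (adjusted p = 0.00240, edgeR), the largest rise of the 9, and the call held with each library left out in turn (0.55 to 0.86). With the GC offset it was 0.22 (adjusted p = 0.0557) and not called. Exons of Tjp3 share 40 bases, 1.08% of their length, with Apba3 on the other strand, whose reads cannot be told apart without a stated strand setting.

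The wider tight junction lists, 80 genes of which 55 were tested, also had 0 called genes between genotypes in edgeR, DESeq2 and limma voom. The scaffold gene Mpdz had the lowest p of the 55 in edgeR (log2 fold change -0.37, unadjusted p = 0.0415 and adjusted p = 0.9996), and it was the only one under 0.05 before adjustment. Between the title ranges 31 of the 55 were called higher and 3 lower, beside 44.7% of all genes (24.6% higher and 20.1% lower). Without N1, 10 of the 57 list genes then tested were called, beside 8.47% of all genes. With the GC offset it was 25 higher and 3 lower of 55, beside 35.4%.

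Of the 27 other scaffold and polarity proteins, 18 were called higher in the higher title range and 0 lower. Of all tested genes, 24.6% were called higher and 20.1% lower. The median of the list was 0.52, and 6 of the 27 fold changes were below 0. Pard6b, a partner of atypical protein kinase C in the Par polarity complex, had 0.92 ± 0.09 (adjusted p = 0.00174, edgeR). The polarity protein Pard3 had 0.80 ± 0.11 and the angiomotin-like Amotl2 0.80 ± 0.13. The most abundant of the list per kb were Ybx3, a ZO-1-binding nucleic acid-binding protein with 148 CPM per kb on average, and Pard6g with 54.9, which rose by 0.51 and 0.68. With the GC offset 14 of the 27 were called higher and 0 lower, with a median of 0.39. That fit called 2444 of all 12847 tested genes higher and 2109 lower.

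Of the 18 other claudins 4 were tested, and 2 of these were called lower and 1 higher between the title ranges. Of all tested genes, 20.1% were called lower and 24.6% higher, and calls among 4 genes are too few to set apart from those shares. Cldn8 was lower, with 16.3, 15.2 and 19.3 CPM in the lower and 8.37, 7.77 and 7.50 CPM in the higher range, a log2 fold change of -1.14 ± 0.14 (adjusted p = 0.00182, edgeR). Cldn2, a claudin that forms a channel for cations, was lower with 3.42, 2.21 and 3.90 CPM against 0.607, 0.836 and 0.635 CPM, or -2.34 ± 0.31 (adjusted p = 0.00203), from 9 to 85 counts per library. Both stayed lower with the GC offset, under which 2 of the 4 were called lower and 0 higher. That fit called 2109 of all 12847 tested genes lower and 2444 higher. Cldn3, the most abundant of the list with 26.9 CPM per kb, was higher by 0.33 ± 0.10 (adjusted p = 0.0251), a call lost with the GC offset, and Cldn17, next with 8.23 CPM per kb, had -0.02. Of the tested claudins, Cldn1, Cldn8, Cldn12 and Cldn17 (45.0%) have a GC content in the lowest tertile and Cldn2 (48.8%) in the middle tertile, so Cldn17 is the low-GC claudin that was not called lower.

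Of the 8 tested other membrane proteins, Lsr, the receptor angulin-1 of contacts between 3 cells, rose by 0.75 ± 0.11 (adjusted p = 0.00252, edgeR), and Ildr1, of the same family, by 0.41 ± 0.10 (adjusted p = 0.0148). These 2 of 8 are a share near the 24.6% of all tested genes called higher, and with the GC offset 1 of the 8 was called higher. The other 6 were not called, among them the tricellular protein gene Marveld2 with 0.04. Cldnd1, the most abundant with 58.3 CPM per kb, had -0.10.

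Of 11 tested regulators of epithelial junction genes, 7 were called higher and 1 lower in the higher range. Of all tested genes, 24.6% were called higher and 20.1% lower. Grhl3, a Grainyhead-like factor, was at 152, 102 and 124 CPM in the lower and 283, 291 and 284 CPM in the higher range, a log2 fold change of 1.18 ± 0.15 (adjusted p = 0.00182, edgeR). Klf4, a factor of epithelial differentiation, had 1.46 ± 0.19 (adjusted p = 0.00197), the epithelial factor Elf3 0.72 ± 0.12 and Grhl1 0.68 ± 0.12. The 1 called lower was Ehf, an epithelial factor related to Elf3 (-0.32 ± 0.10), which was not called with the GC offset. Elf3 (629 CPM per kb) and Klf4 (378 CPM per kb) were also the most abundant of the list. Of surface proteases and their inhibitors, 3 of 5 tested genes were called higher and 0 lower, beside the same shares of all genes. They were the protease matriptase (St14) with 0.64 ± 0.13, and its inhibitors Spint1 with 0.73 ± 0.13 and Spint2 with 0.52 ± 0.10. The fold changes of the other 2 were below 0. One of these, the protease Prss8, the most abundant with 85.5 CPM per kb, had -0.26. Its higher range lay wholly below its lower range, but it was not called. With the GC offset, 3 of the 5 were called higher and 1 lower, beside 35.4% of all tested genes called in either direction.

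**Figure D5:**
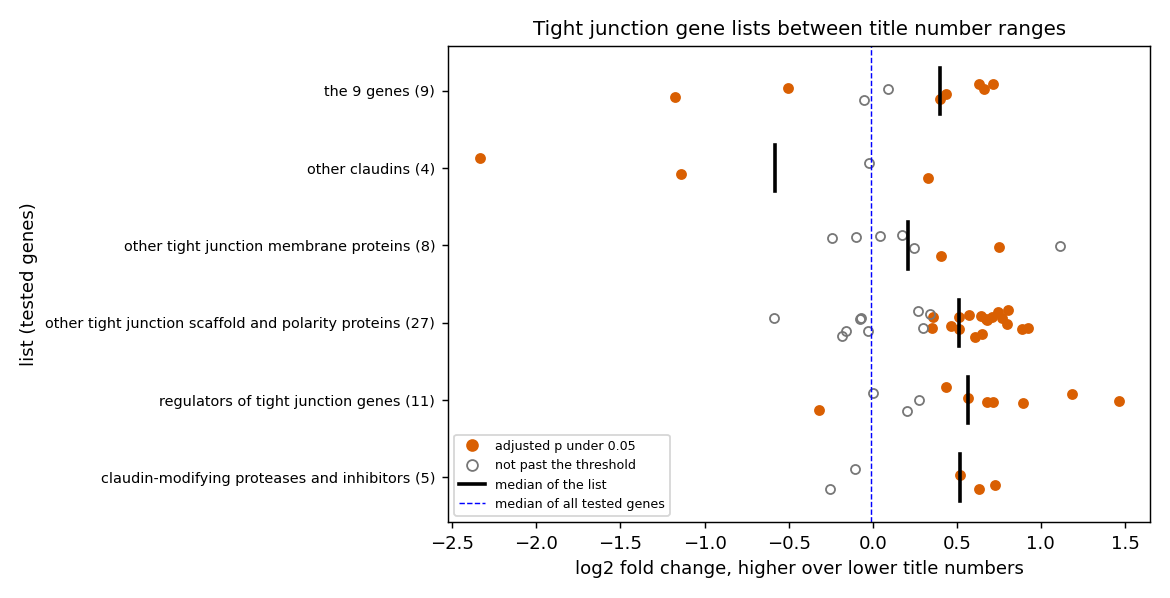
Log2 fold change between the title ranges (higher over lower) of each tested gene of the tight junction lists, filled where the adjusted p is under 0.05, with the median of each list (black) and of all tested genes (dashed). The scaffold and polarity list has 18 of 27 genes filled, all to the right, while Cldn2 (-2.34) and Cldn8 (-1.14) lie far to the left.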

How the data were processed

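The authors deposited 1 table of raw read counts per Ensembl gene for 6 samples, sequenced on an Illumina HiSeq from total RNA per the series design text. Aligner, counting program, strand setting, build and annotation were not given in the sources used here. Symbols, positions, exon lengths and GC content came from GENCODE M21 (GRCm38), which held 24991 of the 25006 identifiers (whether counting used the same annotation is not known), and promoters from RefSeq (GRCm38.p6).

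Counts were TMM-normalised, filtered with filterByExpr (12847 genes left) and tested with edgeR 4.0.16 (glmQLFit, glmQLFTest) in R 4.3.3, with genotype alone, with genotype and title range, and with their interaction. Benjamini-Hochberg adjustment ran over all tested genes, with a threshold of 0.05. The SE is the log2 fold change divided by the square root of F. Fold changes within a genotype or range are differences of mean log2(CPM + 0.5). DESeq2 1.42.0, limma voom 3.58.1, other filters and scalings, each library left out and summed libraries were alternatives, and an edgeR offset per gene and library from a loess fit on GC content was added after the data were seen. Simulated counts with known changes were used to test the fits. Those for genotype held no title range difference, so they do not show how the genotype fit does in its presence. Named genes are the 9, and of each list up to 4 called genes and the 2 most abundant per kb. Mpdz, Marveld2, Ehf, Muc4 and Muc5ac were named after their values were seen. One gene that this rule names is not reported here. The 9 genes, the lists and the title ranges were chosen with earlier results of these data known.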

Additional observations from a re-analysis of the deposited data

How the results depend on the processing

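No paired analysis was possible because the replicate numbers were given in accession order. For genotype, 0 of the 9 genes were called under each alternative, and 0 of the 53 to 74 list genes tested under each but a threshold of 0.1, which was not run for the lists, while signs near 0 turned. With the title range as a term (edgeR, DESeq2, voom), Cldn1 turned to 0.21, 0.23 and 0.12, Cldn12 to 0.028, 0.030 and 0.025, Cldn23 to -0.13, -0.13 and -0.13, Tjp3 to -0.15, -0.15 and -0.16, and F11r to -0.0208, -0.0197 and -0.0224. With libraries that share a title number summed they were 0.037, 0.016, -0.15, -0.12 and -0.043. With the GC offset Cldn23 turned to -0.044, F11r to -0.013, Ocln to 0.015 and Tjp1 to 0.0039, which voom gave as 0.0048. With genes of at least 1 CPM Cldn23 was -0.0060 and F11r -0.0042, and without a filter Cldn23 was -0.00042. With 1 library left out the genotype values ran from -0.66 to 0.026 for Cldn1, -0.15 to 0.13 for Cldn23, -0.13 to 0.046 for Ocln, -0.15 to 0.25 for Tjp1, -0.066 to 0.35 for Tjp3 and -0.074 to 0.057 for F11r. The genotype difference in the share of Cldn7 ran from -0.65 to 0.72 percentage points.

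Between title ranges, each of RLE scaling, both other filters, DESeq2, voom, summed libraries, no genotype term and a threshold of 0.1 called 7 of the 9 genes, and the GC offset 2. Over these settings 34.2% to 54.8% of all tested genes were called. With 1 library left out, 3 to 7 of the 9 genes and 10 to 38 of the list genes were called. The share of all tested genes called was then 8.47% to 44.7%. Ocln, not called, ran from -0.14 to 0.013 and was 0.21 with the GC offset. With 3 libraries a side, and 1 in some combinations of genotype and range, small genotype differences could be missed.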

Other observations

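The genes whose log2(CPM + 0.5) followed each member most closely over the 6 libraries came from 8831 candidates that averaged 10 CPM or more. They were Surf2 for Cldn1, Eef2 for Cldn4, Thap4 for Cldn7, Kctd18 for Cldn12, Hspbap1 for Cldn23, Clp1 for Ocln, Map3k9 for Tjp1, Cic for Tjp3 and Pqlc1 for F11r, with Pearson's r from 0.992 (Pqlc1) to 0.9996 (Clp1). For the mean of the 9 standardised genes they were Ythdf2 (r = 0.993), Mbp (0.993) and Ccn1 (0.990). The 6 libraries fall into 2 sets by title number, and each r was picked as the highest of many, so these values describe likeness in these libraries only.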
